A study of Mus musculus with 6 samples.

Results

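The genes described are 45 mouse genes of DNA replication and mitosis, chosen by name as 22 genes of S phase (Mcm2, Mcm3, Mcm4, Mcm5, Mcm6, Mcm7, Pcna, Gins2, Cdc6, Cdc45, Cdt1, Rrm1, Rrm2, Tyms, Fen1, Rfc2, Pola1, Prim1, Ccne1, Ccne2, Slbp and Ung) and 23 genes of G2 and mitosis (Mki67, Top2a, Ccna2, Ccnb1, Ccnb2, Cdk1, Cdc20, Plk1, Aurka, Aurkb, Bub1, Bub1b, Ttk, Birc5, Cenpa, Cenpe, Cenpf, Kif11, Kif20b, Kif23, Tpx2, Nusap1 and Ube2c). Of these, 43 had a probe set that could be matched to the gene, 21 of S phase and 22 of G2/M, among 15302 named genes in all. Pcna, the sliding clamp of the replication fork, and Mki67, which encodes the proliferation antigen Ki-67, matched no probe set and have no values here. The measurements come from 6 Affymetrix arrays of mouse embryonic stem (ES) cell-derived cells labelled as neural progenitors. In 3 of the samples the ES cells had the genotype Sox1-GFP and Nestin-Sox3, and they are called Sox3 cells here. The other 3 samples were control cells of the genotype Sox1-GFP. GFP at the Sox1 locus, which both groups carry, served for sorting, and in the Sox3 cells the Nestin promoter drives Sox3, a SoxB1 transcription factor of neural progenitors. Both groups were grown as monolayers with 0.5 µM retinoic acid on days 0 and 2 and were sorted by FACS on day 4. Whether a genotype was 1 clone of ES cells or several is not given in the sources used here, so that a clone and its genotype cannot be told apart.

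DNA replication starts from origins on which ORC, Cdc6 and Cdt1 load the hexameric Mcm2-7 helicase in G1. The helicase is switched on with Cdc45 and the GINS complex when cyclin E and CDK activity climbs at the start of S phase. Many genes of this machinery are transcribed under E2F factors, which the RB proteins hold back, and many genes of G2 and mitosis under NF-Y and the DREAM and MuvB-FOXM1 complexes, which bind CCAAT boxes and the cell cycle genes homology region (CHR). ES cells and early neural progenitors divide fast, with a short G1, and SoxB1 factors are known for keeping neural progenitors cycling and undifferentiated. In a bulk sample, fewer cells in a phase and less RNA of a gene per cell cannot be told apart.

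The promoters of the genes were set side by side first, since S phase and G2/M genes are known targets of different factors. RefSeq promoter windows (GRCm38.p6, from 250 bases before to 50 bases after the transcription start) were matched by symbol for 18 of the 22 S phase genes and 20 of the 23 G2/M genes. The S phase windows numbered 20, since Fen1 and Mcm7 had 2 each. Mcm4, Gins2, Rfc2, Ccne2, Ccna2, Aurkb and Tpx2 had no entry. Each motif was searched as exact letters on both strands. An E2F word (TTTGGCGC, TTTCCCGC, TTTCGCGC or TTTGCCGC) lay in 7 of the 20 S phase promoters (35%) and in 1 of the 20 G2/M promoters (5%), that of Cdk1, against 2.26% of all 32851 promoters. A CHR word (TTTGAA or TTCGAA) lay in 4 of 20 S phase promoters (20%) and in 16 of 20 G2/M promoters (80%), against 19.2% of all. CCAAT was found in 13 S phase promoters (65%) and 17 G2/M promoters (85%), against 37.4% of all, and the GC box word GGGCGG in 14 (70%) and 17 (85%), against 35.7%. The SOX word CATTGT was found in 2 promoters of each list (10%), against 12.6% of all promoters, and both S phase windows with it belong to Fen1. A match is a match of letters and was not tested for binding.

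The helicase subunits held the most E2F words of the S phase genes, and 3 of their promoters are shown with each such word, on either strand, in capitals. Mcm7 also held 2 and is not shown. Mcm6 lies at chr1:128359656-128359955 on the minus strand, with words that begin 110, 106 and 47 bases before the start, the first pair overlapping. Mcm3 lies at chr1:20820263-20820562 on the minus strand, with words from bases 20 and 39 of the transcribed sequence. Mcm5 lies at chr8:75109259-75109558 on the plus strand, with overlapping words that begin 153 and 149 bases before the start.
Mcm6: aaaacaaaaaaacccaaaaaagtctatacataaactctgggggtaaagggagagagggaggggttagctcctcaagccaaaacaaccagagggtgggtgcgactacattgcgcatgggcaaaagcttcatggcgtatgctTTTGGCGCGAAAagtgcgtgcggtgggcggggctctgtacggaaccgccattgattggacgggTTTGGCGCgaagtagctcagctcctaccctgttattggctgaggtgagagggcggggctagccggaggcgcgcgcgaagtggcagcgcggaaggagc
Mcm3: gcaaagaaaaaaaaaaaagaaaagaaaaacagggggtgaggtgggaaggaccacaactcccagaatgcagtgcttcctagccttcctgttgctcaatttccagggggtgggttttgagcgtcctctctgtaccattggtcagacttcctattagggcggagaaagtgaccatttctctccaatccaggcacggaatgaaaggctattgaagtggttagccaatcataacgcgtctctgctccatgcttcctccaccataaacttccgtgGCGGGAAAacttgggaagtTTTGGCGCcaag
Mcm5: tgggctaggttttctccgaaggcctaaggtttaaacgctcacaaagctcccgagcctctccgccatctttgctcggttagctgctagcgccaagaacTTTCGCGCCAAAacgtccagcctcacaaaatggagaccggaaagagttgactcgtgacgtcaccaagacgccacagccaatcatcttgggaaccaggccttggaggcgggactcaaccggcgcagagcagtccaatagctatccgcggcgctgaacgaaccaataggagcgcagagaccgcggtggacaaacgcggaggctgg

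Among the G2/M promoters Top2a and Ube2c held the most CHR and CCAAT words together, and they are shown with Ccnb2, which tied with Cdk1 and Mki67 and was taken by order of symbol. Here the capitals mark these words on either strand. Top2a lies at chr11:99024140-99024439 on the minus strand and holds 10 matches, Ube2c at chr2:164769679-164769978 on the plus strand with 7, and Ccnb2 at chr9:70421505-70421804 on the minus strand with 5. The CHR word nearest to the start began 23 bases before it in Top2a and 29 bases before it in Ube2c, and at base 5 of the transcribed sequence in Ccnb2.
Top2a: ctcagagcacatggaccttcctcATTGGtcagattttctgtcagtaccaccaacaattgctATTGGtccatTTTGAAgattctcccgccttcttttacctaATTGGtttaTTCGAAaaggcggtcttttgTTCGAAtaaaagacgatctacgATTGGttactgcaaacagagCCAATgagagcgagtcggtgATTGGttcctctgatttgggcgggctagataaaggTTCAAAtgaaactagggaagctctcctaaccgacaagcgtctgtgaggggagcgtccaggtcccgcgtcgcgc
Ube2c: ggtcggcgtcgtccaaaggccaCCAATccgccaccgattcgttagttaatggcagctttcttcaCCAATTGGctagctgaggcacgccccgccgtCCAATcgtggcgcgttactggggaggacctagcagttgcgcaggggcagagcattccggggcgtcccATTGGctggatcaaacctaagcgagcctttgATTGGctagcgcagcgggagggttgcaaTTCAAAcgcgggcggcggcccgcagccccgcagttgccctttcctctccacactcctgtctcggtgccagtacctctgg
Ccnb2: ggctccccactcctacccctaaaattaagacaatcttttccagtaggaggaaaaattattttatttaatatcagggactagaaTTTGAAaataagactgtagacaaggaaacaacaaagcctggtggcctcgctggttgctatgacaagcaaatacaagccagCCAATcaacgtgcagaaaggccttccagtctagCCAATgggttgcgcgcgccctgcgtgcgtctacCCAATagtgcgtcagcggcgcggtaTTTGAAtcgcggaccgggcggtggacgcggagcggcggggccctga

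The arrays were close to each other as a whole. Median log2 signals of the 6 arrays ran from 6.85 to 6.87, and control replicate 3 had the widest interquartile range, 3.17, against 2.89 to 3.02 on the others. Sox3 had log2 signals of 9.20, 9.23 and 9.22 in Sox3 cells, against 7.59, 7.52 and 7.25 in control cells, a 3.39-fold difference (limma adjusted p = 0.000189), so that the arrays match their labels for this gene. Of the 8 neural progenitor markers, Sox3 rose and Sox2 fell by 0.37 on the log2 scale (limma adjusted p = 0.024). The other 6 did not pass the threshold, with Fabp7 at 0.77 ± 0.20 and Pax6 at -0.19 ± 0.05 (SE) among them. The log2 of the summed signal of all 8 ran from 13.12 to 13.21 in Sox3 cells and from 13.12 to 13.27 in control cells. Vim and Sox2 were the brightest of the 8. Sox1 averaged 6.86 in Sox3 cells and 6.96 in control cells, near the middle of all genes, and Pax6 averaged 5.86 and 6.05. Markers of pluripotent cells were bright in both groups, with Pou5f1 averaging 10.59 in Sox3 cells, against 10.57 in the controls, and Zfp42 12.60, against 12.64.

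None of the 43 measured genes passed the threshold. At an adjusted p under 0.05 over all probe sets in limma's test, 0 of the 21 S phase genes and 0 of the 22 G2/M genes were called, where 3.94% of all named genes were called, 2.67% lower and 1.27% higher in Sox3 cells. The smallest adjusted p was 0.054, for Pola1. At an unadjusted p under 0.05, 10 of 21 S phase genes and 2 of 22 G2/M genes were lower and 0 of either list higher in Sox3 cells, against 15.2% lower and 8.69% higher over all genes. In the 2 brightest deciles of genes by signal, where 36 of the 43 lay, 28.8% were lower. After quantile normalisation 7 S phase genes were lower and 4 G2/M genes higher, and after cyclic loess 6 and 3. Under these scalings 0 S phase genes were higher and 0 G2/M genes lower. The shares of all genes given above hold for the deposited values. They were not taken under these scalings, so these counts have no background to be read against. The differences were small for every member. All 43 had a 95% interval that lay within 1.5-fold in both directions (14868 of all 15302 genes did). The lowest bound was -0.42 for Ung, a 1.34-fold reduction, and the highest 0.34 for Cdc20, a 1.27-fold increase. These intervals are per gene and are not adjusted for the number of genes, and RMA compresses the differences of dim genes.

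**Figure D1:**
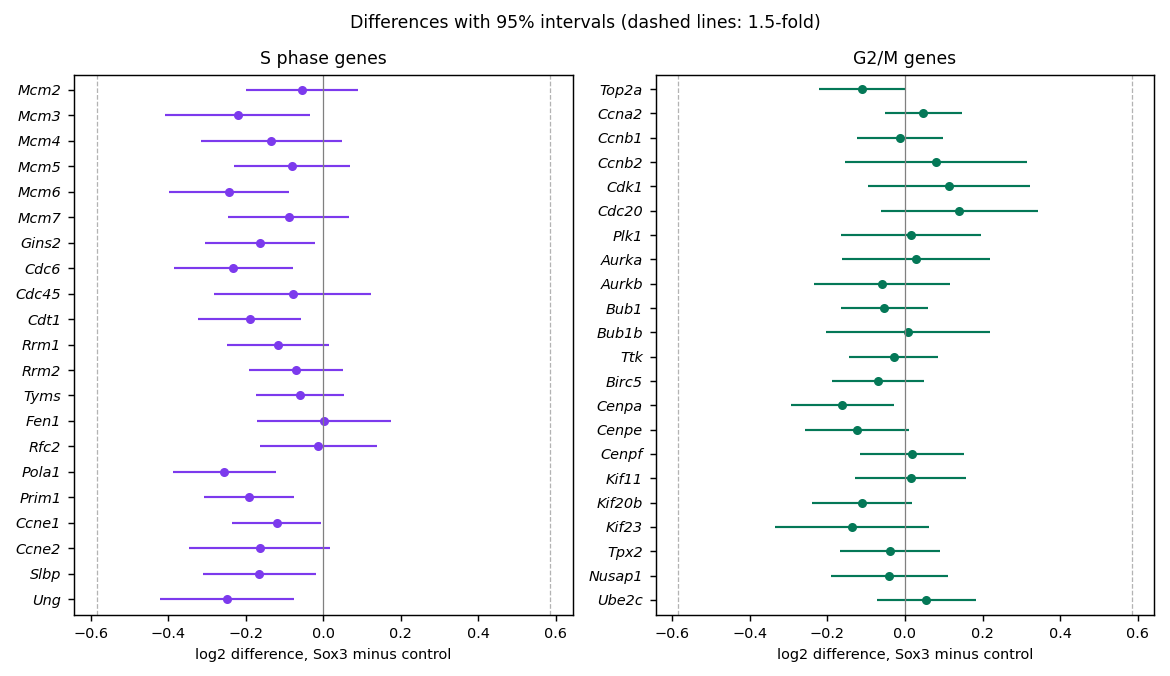
Log2 difference of each gene, Sox3 cells minus control cells (points), with its 95% interval from limma (lines), for S phase genes (left) and G2/M genes (right); n = 3 arrays per group. The dashed lines mark 1.5-fold. Points of 20 of the 21 S phase genes lie below 0, against 12 of the 22 G2/M genes, and every interval lies inside the dashed lines.

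The 6 subunits of the replicative helicase had lower mean signals in Sox3 cells, with differences from -0.24 to -0.06 and a median of -0.11 in the deposited values. After quantile normalisation 5 of 6 and after cyclic loess 4 of 6 were below 0, each with a median of -0.03. Mcm6 had the largest. Its log2 signals were 12.04, 12.11 and 12.13 in Sox3 cells, against 12.25, 12.28 and 12.47 in control cells. The groups did not overlap, and the difference was -0.24 ± 0.07 (SE, limma adjusted p = 0.087). Mcm3 had 10.80, 10.96 and 11.10 in Sox3 cells, against 11.19, 11.08 and 11.25 in control cells (difference -0.22 ± 0.08, limma adjusted p = 0.16). Here Sox3 replicate 3 reached just above control replicate 2. Mcm2, Mcm4, Mcm5 and Mcm7 overlapped as well, with differences of -0.06, -0.13, -0.08 and -0.09 and SEs of 0.06 to 0.08. Mcm2 averaged 11.63 ± 0.11 in Sox3 cells, against 11.68 ± 0.02 in the controls (SD, n = 3 arrays per group), a difference within the spread of its replicates.

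The factors that load and switch on the helicase were lower in mean too. Cdc6, the ATPase that loads Mcm2-7 with ORC, had 10.66, 10.89 and 10.85 in Sox3 cells, against 11.02, 11.03 and 11.04 in control cells. The control arrays were nearly equal, and each Sox3 array was below them (difference -0.23 ± 0.07 SE, limma adjusted p = 0.098). Cdt1, the loading factor that geminin inhibits, had 11.72, 11.82 and 11.88 in Sox3 cells, against 11.99, 11.95 and 12.05 in control cells (difference -0.19 ± 0.06 SE, limma adjusted p = 0.11). The Cdt1 groups did not overlap either. Gins2, a subunit of the GINS complex, averaged 9.70 ± 0.10 in Sox3 cells, against 9.86 ± 0.03 in the controls, without overlap (SD, n = 3 arrays per group; limma adjusted p = 0.16). Cdc45, which joins the active helicase, overlapped, with 9.13 ± 0.18 in Sox3 cells, against 9.21 ± 0.05 in the controls (SD, n = 3 arrays per group; limma adjusted p = 0.61).

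Among the fork enzymes, the genes that prime DNA synthesis had the largest differences. Pola1, the catalytic subunit of DNA polymerase alpha, had 9.91, 10.07 and 9.97 in Sox3 cells, against 10.20, 10.22 and 10.30 in control cells. Its difference of -0.26 ± 0.06 (SE) was the largest of all 43, and the groups did not overlap. Prim1, the primase subunit of the same complex, had 11.21, 11.27 and 11.31 in Sox3 cells, against 11.47, 11.41 and 11.49 in control cells (difference -0.19 ± 0.05 SE, limma adjusted p = 0.077). Prim1 did not overlap either. In contrast, the flap endonuclease Fen1, which trims Okazaki fragments, averaged 10.71 ± 0.14 in Sox3 cells, against 10.71 ± 0.07 in the controls, and the clamp loader subunit Rfc2 averaged 11.07 ± 0.12 in Sox3 cells, against 11.09 ± 0.03 in the controls (SD, n = 3 arrays per group). Their 95% intervals, -0.17 to 0.17 for Fen1 and -0.16 to 0.14 for Rfc2, do not show that they were equal. Pola1 was called, as lower in Sox3 cells, in 5 of the 17 other analyses, those that tested fewer probe sets or weighted the arrays, with an adjusted p between 0.034 and 0.18 over all of them.

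The genes of deoxynucleotide synthesis overlapped in each case. Rrm1 and Rrm2, the large and small subunits of ribonucleotide reductase, differed by -0.12 ± 0.06 and -0.07 ± 0.05, and thymidylate synthase, Tyms, by -0.06 ± 0.05 (SE; limma adjusted p from 0.27 to 0.48). The Tyms probe set was dim, with means of 5.71 in Sox3 cells, against 5.78 in the controls, in decile 3 of genes by signal, and no detection call came with the values. Both cyclin E genes, whose products activate CDK2 at the G1/S transition, were lower on all Sox3 arrays. Ccne1 had 10.85, 10.92 and 10.94 in Sox3 cells, against 11.01, 10.99 and 11.08 in control cells, and Ccne2 8.20, 8.22 and 8.27, against 8.30, 8.31 and 8.58. Their differences were -0.12 ± 0.05 and -0.16 ± 0.08 (SE; limma adjusted p = 0.20 and 0.26), and control replicate 3 was the highest array for each.

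Slbp and Ung complete the S phase genes. Slbp, which binds the stem-loop of replication-dependent histone mRNAs, had 11.95, 11.97 and 11.81 in Sox3 cells, against 11.98, 12.12 and 12.12 in control cells (difference -0.17 ± 0.06 SE, limma adjusted p = 0.17). Ung, the uracil DNA glycosylase, had 10.78, 10.94 and 11.01 in Sox3 cells, against 11.08, 11.13 and 11.26 in control cells (difference -0.25 ± 0.08 SE, limma adjusted p = 0.11). Neither overlapped between the groups. In all, 10 of the 21 S phase genes had every Sox3 array below every control array and 0 the reverse, against 18.3% and 13.1% of all genes. In the 2 brightest deciles these shares were 33.0% and 6.6%.

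**Figure D2:**
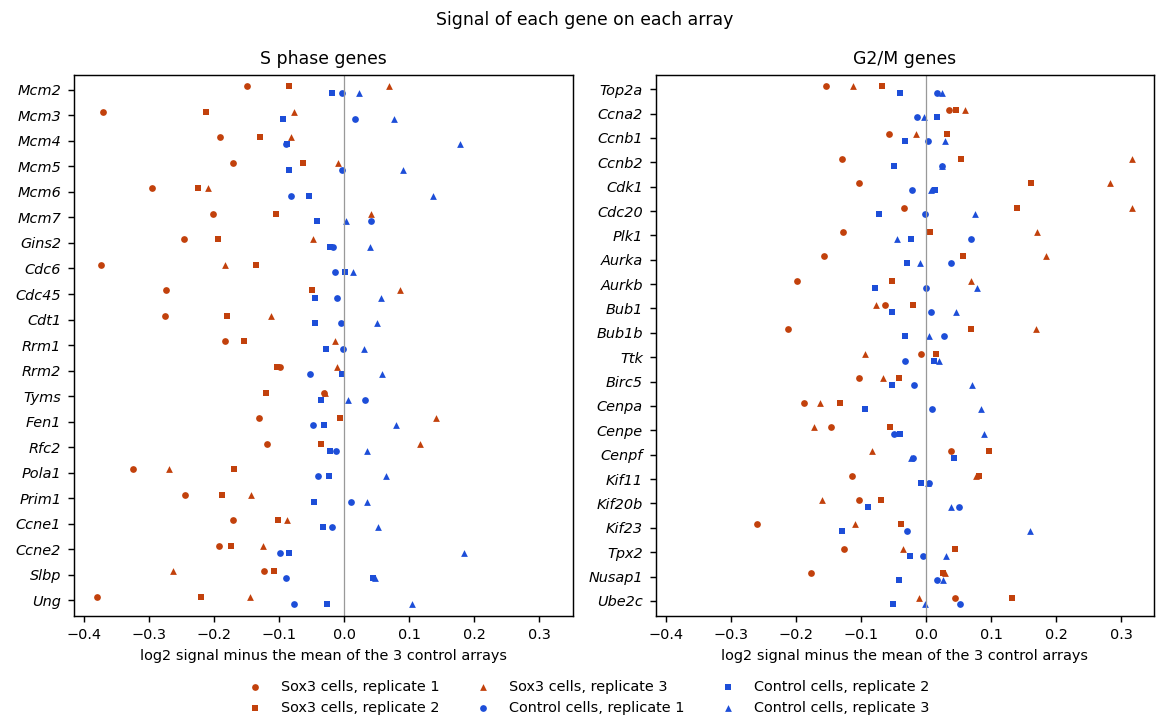
Log2 signal of each gene on each array minus the mean of its 3 control arrays, for S phase genes (left) and G2/M genes (right). Orange marks are Sox3 arrays and blue marks control arrays, with circles, squares and triangles for replicates 1, 2 and 3. Among S phase genes the orange circles of Sox3 replicate 1 are the lowest mark for 18 of 21 genes, and among G2/M genes the Sox3 triangles spread to both sides of the control arrays. The values are as deposited. After quantile normalisation Sox3 replicate 1 was the lowest array for 5 of the 21 S phase genes.

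With the deposited values the G2/M genes showed no common direction. Of 22, 12 had lower and 10 higher mean signals in Sox3 cells, with differences from -0.16 to 0.14, and the groups did not overlap for 3 lower genes (Top2a, Cenpa and Cenpe) and 1 higher gene (Ccna2). After quantile normalisation or cyclic loess between arrays, 5 were lower and 17 higher in mean. With the deposited values 13.6% lay wholly below control, against 18.3% of all genes. The share was 33.0% in the 2 brightest deciles, where 18 of the 22 lay. Wholly above control lay 4.5%, against 13.1% of all genes and 6.6% in these deciles. After quantile normalisation 1 gene lay wholly below and 3 above, and after cyclic loess 0 and 2. In the 2 brightest deciles the shares below and above were then 20.4% and 18.36%, and 19.57% and 19.86%. Ccna2, cyclin A2, which acts in S phase and in entry to mitosis, had 11.43, 11.44 and 11.46 in Sox3 cells, against 11.38, 11.41 and 11.39 in control cells. The groups were separate but by a small margin, a difference of 0.05 ± 0.04 (SE, limma adjusted p = 0.53). Ccnb1, the main mitotic cyclin, was nearly level, with 12.31, 12.40 and 12.35 in Sox3 cells, against 12.37, 12.34 and 12.40 in control cells, a difference of -0.01 with a 95% interval of -0.12 to 0.10.

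Cdk1, its partner Ccnb2 and Cdc20 varied among the Sox3 arrays more than they differed between the groups. Cdk1, the kinase that drives mitosis, had 11.81, 12.07 and 12.19 in Sox3 cells, against 11.89, 11.92 and 11.92 in control cells. Ccnb2, cyclin B2, had 11.42, 11.60 and 11.87 in Sox3 cells, against 11.57, 11.50 and 11.57 in control cells. Cdc20, which activates the anaphase-promoting complex (APC/C), had 12.51, 12.69 and 12.86 in Sox3 cells, against 12.54, 12.47 and 12.62 in control cells. In each, Sox3 replicate 3 was the highest array of all and Sox3 replicate 1 lay below at least 1 control array. Their differences were 0.11 ± 0.09, 0.08 ± 0.10 and 0.14 ± 0.09 (SE; limma adjusted p = 0.47, 0.65 and 0.37). Ube2c, the ubiquitin-conjugating enzyme of the APC/C, averaged 11.50 ± 0.07 in Sox3 cells, against 11.45 ± 0.05 in the controls (SD, n = 3 arrays per group), with overlap.

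The mitotic kinases Plk1, Aurka, Aurkb, Bub1, Bub1b and Ttk, which drive centrosome maturation, chromosome alignment and the spindle checkpoint, overlapped throughout. Their differences ran from -0.06 to 0.03, with SEs of 0.05 to 0.09. Bub1b, the checkpoint protein BubR1, spread over 11.69, 11.97 and 12.07 in Sox3 cells, against 11.93, 11.86 and 11.90 in control cells, the same order of Sox3 arrays as in Cdk1. Ttk, the checkpoint kinase Mps1, is the only one of the 7 members with several probe sets whose probe sets differ in value, and both gave a difference between -0.03 and -0.02.

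The G2/M gene with the lowest difference was a centromere gene. Cenpa, the histone H3 variant of centromeres, had 11.67, 11.73 and 11.70 in Sox3 cells, against 11.87, 11.77 and 11.95 in control cells (difference -0.16 ± 0.06 SE, limma adjusted p = 0.15). Cenpe, the kinetochore kinesin, had 8.97, 9.06 and 8.94 in Sox3 cells, against 9.07, 9.07 and 9.20 in control cells (difference -0.12 ± 0.06 SE, limma adjusted p = 0.25). In both, the groups did not overlap. Cenpf, another kinetochore protein, and Birc5, survivin of the chromosomal passenger complex, overlapped, with differences of 0.02 ± 0.06 and -0.07 ± 0.05 (SE). Top2a, the topoisomerase that untangles sister chromatids, had 12.62, 12.71 and 12.66 in Sox3 cells, against 12.79, 12.73 and 12.80 in control cells (difference -0.11 ± 0.05 SE, limma adjusted p = 0.22). The spindle kinesin Kif11, the late mitotic kinesins Kif20b and Kif23, and the spindle proteins Tpx2 and Nusap1 overlapped between the groups, with differences from -0.14 to 0.01.

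The differences have to be read against the signal level, because in the deposited values bright genes as a whole were lower in Sox3 cells. Of the 43 genes, 36 lay in the 2 brightest deciles of all genes. The median log2 difference there was -0.08 over 3061 genes, of which 73.6% were below 0 and 33.0% had all Sox3 arrays below all control arrays, while the median over all genes was 0.00. After quantile normalisation 1572 and after cyclic loess 1499 of the 3061 were below 0, with a median of -0.0037 and 0.0027. The median of the S phase genes was -0.13 and that of the G2/M genes -0.02. After the median of each gene's own decile was subtracted, a step chosen after the data had been seen, the medians were -0.08 (17 of 21 below 0) and 0.05 (5 of 22 below 0). Quantile normalisation between arrays gave -0.08 for the S phase and 0.05 for the G2/M genes, and cyclic loess -0.08 and 0.06. The S phase median was thus below 0 with each scaling. The G2/M median was also above 0 with array weights on the deposited values, at 0.015, and without Sox3 replicate 1, at 0.0086. Both values are smaller than the SD of its array medians within the groups, which was 0.0538 with the deposited values. The G2/M median after quantile normalisation, 0.0510, is smaller than this SD too. Those after subtraction of the decile medians, 0.0539, and with cyclic loess, 0.0593, are little above it. The cause of the change of sign was not tested. The S phase genes whose groups did not overlap, all lower, numbered 9 of 21 after quantile normalisation, against 15.9% of all genes and 20.4% of those in the 2 brightest deciles. No S phase or G2/M gene passed the threshold under either scaling. These medians are descriptions of lists that differ in membership and were not tested.

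**Figure D3:**
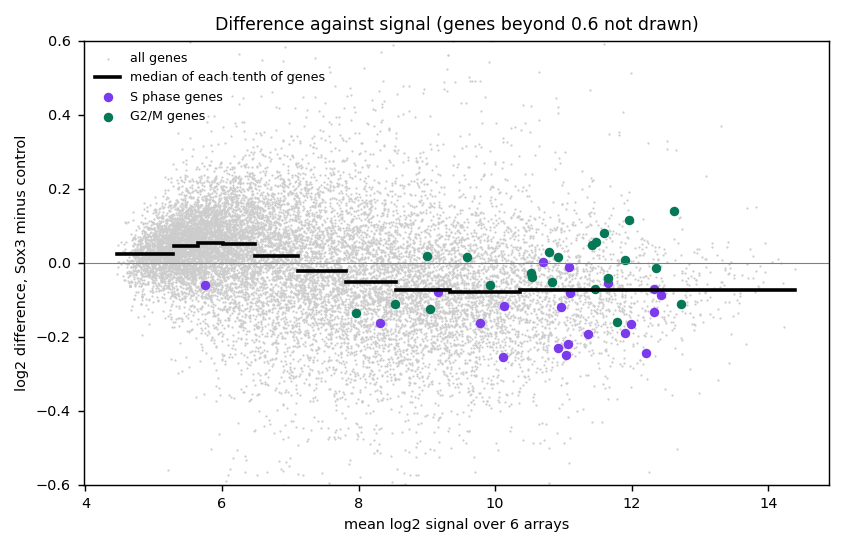
Log2 difference, Sox3 cells minus control cells, against the mean log2 signal over the 6 arrays. Grey points are all named genes, purple points S phase genes, green points G2/M genes, and black bars the median of each decile of genes by signal; genes beyond the axis are not drawn. The bars are above 0 in the 5 dimmer deciles and below 0 in the 5 brighter ones, and 17 of the 21 S phase genes lie below the bar of their own decile.

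The arrays also differed within the groups. The median deviation of the S phase genes from their means over the 6 arrays was -0.13, -0.06 and 0.00 on Sox3 replicates 1, 2 and 3, against 0.04, 0.03 and 0.13 on control replicates 1, 2 and 3. For the G2/M genes the median deviation was -0.11, 0.03 and -0.01 on the Sox3 arrays, against 0.02, -0.03 and 0.04 on the control arrays. In these deposited values Sox3 replicate 1 was thus the lowest array for both lists, and for 18 of the 21 S phase and 14 of the 22 G2/M genes. Control replicate 3 was the highest array for 15 S phase genes. All genes of the 2 brightest deciles had median deviations of -0.10 and 0.10 on these 2 arrays. After quantile normalisation Sox3 replicate 1 was lowest for 5 S phase and 4 G2/M genes. Control replicate 3 was then highest for 7 S phase genes and lowest for 11 G2/M genes. With the deposited values but without Sox3 replicate 1 the S phase median difference was -0.11, with 18 of 21 genes below 0. The G2/M median was 0.01, with 8 of 22 below 0. Without control replicate 3 they were -0.09 and -0.01.

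The gap between the list medians had the same direction in every analysis run, but many of these could not change it. Median centring, the variance model, the replicate block, the threshold and named genes alone leave it at -0.113 by construction. All analyses reuse the same 6 arrays. The S phase median deviation minus the G2/M median deviation was -0.03, -0.09 and 0.01 on the Sox3 arrays, against 0.02, 0.05 and 0.09 on the control arrays. After quantile normalisation the gaps were -0.02, -0.08 and -0.00 on the Sox3 arrays, against 0.02, 0.05 and 0.09 on the control arrays. The Sox3 arrays lay below the control arrays both times, narrowly with the deposited values, where Sox3 replicate 3 was at 0.013 and control replicate 1 at 0.022. The difference of the list medians was -0.11 with all 6 arrays and ran from -0.15 to -0.08 over the analyses that left out 1 array. The lists were chosen with earlier results of these data known, and no test was made of this gap.

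**Figure D4:**
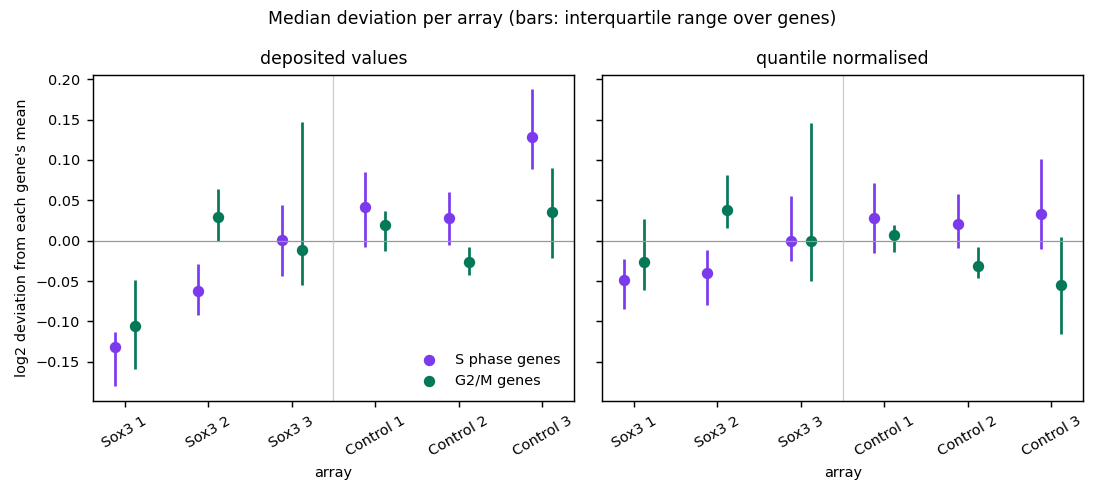
Median log2 deviation of the S phase genes (purple) and the G2/M genes (green) from each gene's mean over the 6 arrays, per array, with bars for the interquartile range over genes. The left panel uses the deposited values and the right panel the values after quantile normalisation. Sox3 arrays stand on the left of each panel, where the purple points of replicates 1 and 2 lie below 0, and the purple points of all control arrays lie above it.

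The S phase genes with an E2F word in the promoter window had a median difference of -0.22 (7 genes), and those without had -0.10 (10 genes). A CHR word split the S phase genes as widely, with -0.07 (4 genes) and -0.19 without (13 genes). For CCAAT the medians were -0.12 (11 genes) and -0.16 without (6 genes), and for the GC box -0.14 (12 genes) and -0.12 without (5 genes). The median difference of the G2/M genes was 0.01 with a CHR word (15 genes) and -0.06 without (4 genes). With CCAAT it was 0.01 (16 genes) and -0.07 without (3 genes), and with the GC box -0.02 (16 genes) and 0.01 without (3 genes). These are descriptions of small groups and were not tested.

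Wider lists of the same pathways, 173 genes of which 165 were measured, held 7 called genes, 3 higher and 4 lower in Sox3 cells, or 4.24% against 3.94% of all genes. In the replication lists, 1 of 19 other licensing and origin firing genes fell and 0 rose, with a median difference of -0.08. The gene was Mcm8, an MCM relative that acts in recombination, with 7.69, 7.98 and 7.77 in Sox3 cells, against 8.32, 8.09 and 8.36 in control cells (limma adjusted p = 0.048). Of 24 other fork, polymerase and clamp loader genes 1 fell and 0 rose, with a median of -0.16. This was Timeless, a fork protection factor, with 10.33, 10.40 and 10.28 in Sox3 cells, against 10.58, 10.59 and 10.70 in control cells (limma adjusted p = 0.035). Of 16 other genes of nucleotide supply and S phase chromatin 0 passed in limma's test, with a median of -0.10. At an unadjusted p under 0.05, 4 were lower, against 15.2% of all genes and 28.8% of those in the 2 brightest deciles, where 12 of the 16 lay. The largest differences were -0.32 ± 0.08 for Brca2 and -0.22 ± 0.11 for Tk1 (SE). The medians of these 3 lists stayed below 0 after quantile normalisation, at -0.05, -0.08 and -0.05, and after cyclic loess, at -0.04, -0.09 and -0.05.

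The smallest p of the wider lists was that of a regulator. Rb1, the retinoblastoma protein that holds back E2F factors, had 11.19, 11.18 and 11.01 in Sox3 cells, against 10.70, 10.66 and 10.80 in control cells, a 1.32-fold difference (log2 0.40 ± 0.07 SE, limma adjusted p = 0.021). The lowest Sox3 array was above the highest control array. E2f4, the main E2F of the repressive DREAM complex, had 7.75, 7.52 and 7.60 in Sox3 cells, against 7.30, 7.33 and 7.16 in control cells, 1.28-fold higher (log2 0.36 ± 0.07 SE, limma adjusted p = 0.043). These were the 2 called genes among 19 of the E2F, RB and DREAM/MuvB list, whose median difference was -0.06. Both kept their call at the 0.05 threshold under every scaling, filter, variance model, weighting and block tried, but with 5 arrays Rb1 kept it only without Sox3 replicate 3 or control replicate 3 and E2f4 in none of the 6 fits (adjusted p up to 0.088 and 0.13 over all analyses).

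Among the mitotic lists, 0 of 18 entry and checkpoint regulators and 0 of 27 other kinetochore and spindle checkpoint genes passed in limma's test. At an unadjusted p under 0.05, 2 were lower and 2 higher in the first list and 3 lower and 1 higher in the other, against 15.2% lower and 8.69% higher over all genes. Their median differences were -0.00 and -0.01, and above 0 after quantile normalisation (0.04 and 0.03) and cyclic loess (0.04 and 0.03). The largest differences were 0.38 ± 0.08 for Gtse1 and -0.17 ± 0.05 for Fbxo5 in the first list, and 0.21 ± 0.05 for Cenpq and -0.16 ± 0.07 for Mis12 in the other (SE). Of 17 other mitotic kinesin, spindle and cytokinesis genes 1 rose and 1 fell, with a median of 0.02. Ckap2, a spindle microtubule protein, was 1.22-fold higher and Spag5, the spindle protein astrin, 1.23-fold lower (limma adjusted p = 0.035 and 0.042). Of 25 APC/C, cohesin and condensin genes 1 fell and 0 rose, with a median of -0.09. This was Anapc2, the cullin subunit of the APC/C, which was 1.23-fold lower (limma adjusted p = 0.031). In this list 12 genes (48%) had all Sox3 arrays below all control arrays and 1 the reverse. The share below was 33.0% in the 2 brightest deciles, where 20 of the 25 lay. After quantile normalisation 6 genes (24%) lay below and 3 above. The median was then -0.04, and -0.02 after cyclic loess. With 5 arrays, Ckap2, Timeless and Anapc2 lost their call whichever array was left out, and Mcm8 and Spag5 kept it only without control replicate 2 (adjusted p up to 0.16 over all analyses of these 5 genes). With the replicate number as a block Ckap2, Timeless, Mcm8 and Spag5 lost it too, as did Timeless and Mcm8 with cyclic loess, Mcm8 and Spag5 with median centring and Mcm8 with array weights.

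**Figure D5:**
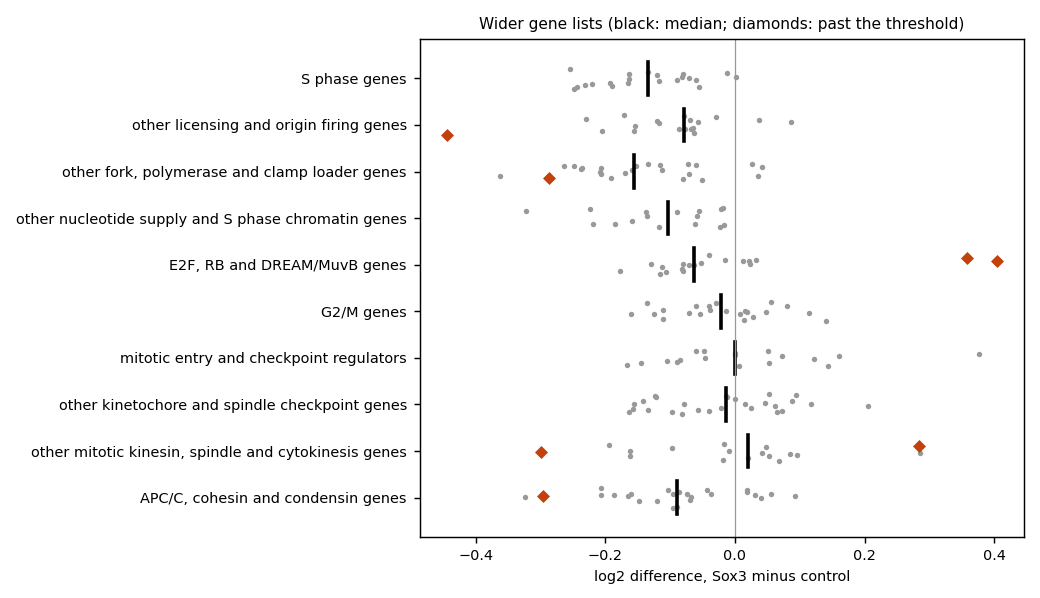
Log2 differences, Sox3 cells minus control cells, of the genes in each list, with the list median as a black bar. Orange diamonds are the 7 genes past the threshold and grey points all others; the vertical scatter within a list has no meaning. The bars of the S phase genes and the 3 lists below them lie between -0.16 and -0.08, and that of the G2/M genes at -0.02.

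Markers of other cell types were measured beside these genes. Of 9 measured pluripotent cell markers 0 passed in limma's test (2 lower at an unadjusted p under 0.05, and 2 higher), and their summed signal ran from 14.56 to 14.66 on the log2 scale in Sox3 cells and from 14.57 to 14.74 in control cells. Of 12 markers of postmitotic neurons 1, Nefm, fell and 0 rose, with summed signals of 10.99 to 11.08 in Sox3 cells and 11.18 to 11.31 in control cells. In the list, 9 differences were below 0 and 3 above, with Gap43 at 0.25 ± 0.06 (SE), which did not pass. Nefm was dim, in decile 3 of genes by signal, with means of 5.59 in Sox3 cells and 6.09 in the controls. Of these markers 6 lay below the 25th percentile of signal, Dcx and Map2 among them. Of 8 endoderm markers 4 fell (Foxa2, Afp, Ttr and Cubn) and 0 rose, where 2.67% of all genes fell. Afp and Ttr were dim, in deciles 1 and 3 of genes by signal. Gata6, Gata4 and Sox17 had differences above 0 that did not pass (0.35 ± 0.12, 0.26 ± 0.09 and 0.08 ± 0.13, SE). The sums were 10.88 to 11.12 in Sox3 cells and 11.04 to 11.45 in control cells. Of 10 mesoderm and muscle-type markers 2 rose (Tagln and Acta2), where 1.27% of all genes did, and 0 fell. The sums were 10.85 to 11.08 in Sox3 cells and 10.09 to 10.37 in control cells. Tagln and Acta2 were also the brightest of this list, with means of 9.14 and 9.46 in Sox3 cells, against 7.71 and 8.29 in the controls. The muscle markers Myh11 and Des differed by 0.02 ± 0.05 and -0.02 ± 0.08 (SE). Over the list, 8 differences were above 0 and 2 below. Whether cells of these types were present, and their part in the values of the replication and mitosis genes, was not tested.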

How the data were processed

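The values are log2 signals of probe sets on 6 Affymetrix arrays as deposited by the authors, who used RMA (Affymetrix Power Tools) according to the submitters' processing notes. For the versions, the array type and the definition of the probe sets, the sources used here give nothing. RMA quantile-normalises probe intensities between arrays, so a change shared by most genes would not show. Array controls (64 of 21940 probe sets) were left out. RefSeq accessions were matched without versions to a GRCm38.p6 gene table, which named 17123 of the 21876 probe sets (15302 genes, none with several symbols), and the brightest probe set by mean over the 6 arrays stood for each gene.

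Groups were tested in R 4.3.3 with lmFit and eBayes of limma 3.58.1 (all probe sets, two-sided, Benjamini-Hochberg over 21876, threshold 0.05), and the procedure was tested on simulated data. In simulated sets with 200 changed features, 9.2% of changes of 0.2 on the log2 scale and 83.6% of those of 0.4 were called. The largest difference of a member was -0.26, so 0 calls do not show that the members were unchanged. Differences are Sox3 cells minus control cells. The replicates are biological by their labels, but shared cultures are not described, so p-values measure the spread between these samples, and 3 arrays per group limit the precision. The members and lists were chosen with earlier results of these data known. All 45 members could be named, with Sox3, the markers, and of each wider list up to 4 called genes or the 2 largest differences; promoters were printed by number of motif matches. Alternatives covered scaling, filters on dim probe sets, the variance model, array weights, a replicate block, the threshold, the probe set per gene and leaving out each array.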

Additional observations from a re-analysis of the deposited data

How the results depend on the processing

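The medians and calls were recomputed under 11 other settings and with each of the 6 arrays left out. The G2/M genes had 0 calls in all of them. The S phase genes had 1 call, Pola1, with either filter on dim probe sets (at the 25th percentile or the median), with the mean of probe sets per gene and with named genes alone, each of which tests fewer features, and 4 calls, Mcm6, Pola1, Prim1 and Ung, with array weights, where control replicate 3 had a weight of 0.295. The S phase median stayed below 0 throughout, from -0.17 to -0.08. The variance model, the replicate block, the threshold and named genes alone cannot change it. The G2/M median moved to 0.051 after quantile normalisation, 0.0593 with cyclic loess and 0.0539 after subtraction of the median of each signal decile, an alternative added after seeing the data, and was also above 0 with array weights (0.015) and without Sox3 replicate 1 (0.0086); the cause was not tested. Over all probe sets 791 were called (32.2% of them higher), against 880 after quantile normalisation (43.4% higher), 820 with cyclic loess (44.5% higher), 2097 with array weights, 150 at an adjusted p under 0.01, and 188 to 475 with 5 arrays. The 7 calls of the wider lists became 11 with array weights, 4 with the replicate block, 0 at the stricter threshold and 0 to 2 with 5 arrays. The replicate block gave 758 calls over all probe sets. Each block holds 1 array of each group, so a block cannot change a difference between group means. The unchanged medians of both lists were thus fixed by the design. Same-numbered arrays' deviations correlated at 0.29, -0.21 and 0.09, so the numbers were not treated as pairs. Of single members, 8 of 356 S phase values and 0 of 374 G2/M values crossed the threshold, and 13 and 33 changed sign, in 6 and 13 genes, none of them called. No detection call came with the array values, which leaves no stated limit for dim probe sets such as that of Tyms.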
